A study of Mus musculus with 6 samples.

Results

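The genes described here encode postsynaptic scaffold proteins and the plasticity signalling proteins that work beside them: 46 genes, chosen by symbol from the 21959 genes of the deposited table. Each symbol was found in 1 row, and all 46 passed the filter on low counts that left 14259 genes to test. The postsynaptic density is a protein mesh under the membrane of excitatory synapses that holds glutamate receptors opposite the release site. MAGUK proteins such as PSD-95 bind receptors, SAPAP proteins link them to Shank and Homer, and these reach the actin of the spine. Calcium that enters through NMDA receptors acts through calmodulin on the kinase CaMKII and the phosphatase calcineurin, which push synaptic strength in opposite directions.

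The study sequenced RNA from the paraventricular nucleus of the midline thalamus in mice after chronic constriction injury (CCI), a nerve injury made with loose ligatures to model neuropathic pain, and from untreated mice. There were 3 CCI libraries (replicates 1 to 3) from mice labelled wild type with CCI as the treatment, and 3 control libraries (replicates 4 to 6) from mice labelled wild type with no treatment. Each group came from 30 mice per the design text, but not how they were pooled, and strain, sex, age, the nerve, time after injury and any sham operation are not given in the sources used here. Surgery and nerve injury therefore cannot be told apart, and the p-values reflect only how far the libraries of a group differ, a difference that may be technical.

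Library totals were 7989139 to 10529886 counts in CCI and 12337448 to 15438268 in control. The members took 36546 to 64027 of the CCI counts and 30002 to 46833 of the control counts. As a share of the library total this was 0.415% to 0.608% in CCI and 0.243% to 0.306% in control. Members had between 8 counts (Dlgap2 and Itpka in their lowest library) and 8923 in 1 library, so the precision of the lowest ones was limited by counting. Control replicate 5 stood apart, with a Pearson correlation across genes on log2(FPKM + 1) of 0.973 and 0.976 with the other controls, against 0.995 between those. Levels are given as CPM, read counts relative to the TMM-scaled library size. Fold changes are on the log2 scale, CCI over control, with the standard error (SE) and a Benjamini-Hochberg adjusted p over all 14259 genes, from the quasi-likelihood test of edgeR with a threshold of 0.05.

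Of the 46 members, 20 rose in CCI, 3 fell and 23 did not pass. Among all genes tested, 27.0% were called higher and 25.3% lower, and the member counts come to 43.5% and 6.52%. The median log2 fold change was 0.55 over the members and 0.06 over all genes tested. In 21 members the lowest CCI library exceeded the highest control library and in 4 the reverse held, against 33.6% and 29.4% of all genes. Rises were spread over every role, from the scaffold linker gene Dlgap2 (9.17-fold) to the gephyrin gene Gphn (2.05-fold), while the falls were Camk2d, Lrrtm1 and Nptx2, each in a family with another member that rose.

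These counts moved with gene length and with single libraries. The members are long, with a median deposited length of 7958 bp, against 4531 bp for all genes tested. Log2 fold changes of all genes followed length, with medians of -0.34 in the shortest of 5 equal bins and 0.58 in the longest. The longest bin, 7780 bp and above, held 23 members, of which 10 rose and 1 fell, and 49.7% of all its genes were called higher and 13.1% lower. With a smooth length trend removed from each library, 7 members were called higher and 10 lower (all genes 21.3% and 27.2%), the added lower calls being Dlg1, Dlg4, Tanc1, Shank2, Iqsec1, Pick1 and Ppp3cb. With trends over length and mean expression both removed, 13 were higher and 3 lower (all genes 18.9% and 19.9%), with Ppp3ca added to the higher calls and Pick1 to the lower ones.

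Without CCI replicate 3, 10 members were higher and 3 lower (all genes 20.8% and 19.2%). Without control replicate 5, 23 were higher and 7 lower (all genes 31.5% and 30.5%), with Dlg3, Dlg4, Homer1 and Kalrn added to the higher calls and Begain, Camk2g, Camk4 and Pick1 to the lower ones. Leaving out both, a choice made after seeing the data, gave 21 and 8 (all genes 33.0% and 31.6%). Without CCI replicate 1 there were 13 and 3 (all genes 20.0% and 18.2%), without CCI replicate 2 there were 17 and 3 (all genes 21.6% and 19.8%), without control replicate 4 there were 16 and 5 (all genes 23.6% and 24.3%), and without control replicate 6 there were 13 and 3 (all genes 21.3% and 21.8%). On the deposited FPKM, which are scaled to the library total, fold changes of all genes lay 0.51 higher at the median. There, with a pseudocount of 1, 31 members were higher and 1 lower (all genes 47.6% and 9.64%; with 0.1 they were 31 and 1, against 46.5% and 9.43%), with Camk2d the 1 that was lower. The calls added there were Dlg1, Dlg3, Dlg4, Dlgap3, Dlgap4, Homer1, Kalrn, Lrrtm2, Ppp3ca, Tanc1 and Tanc2. Dlgap2, Cnksr2, Gphn and Camk2d passed in the same direction in all 15 alternative settings.

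**Figure D1:**
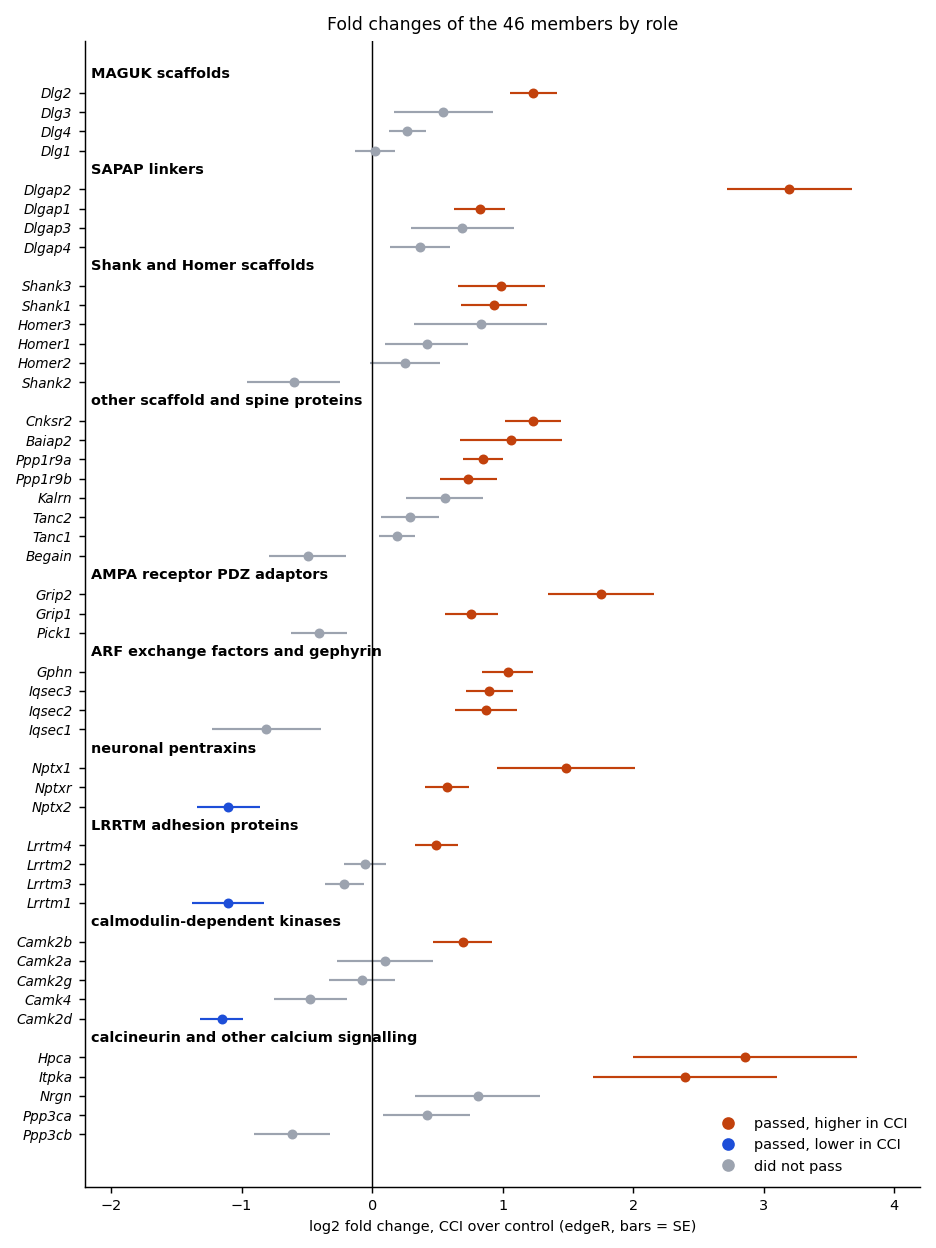
Log2 fold change of each of the 46 members, CCI over control, with its SE from edgeR, grouped by role. Coloured points passed an adjusted p of 0.05, with 20 higher and 3 lower in CCI. Dlgap2, Hpca and Itpka lie farthest to the right and Camk2d, Lrrtm1 and Nptx2 farthest to the left among the called genes.

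**Figure D2:**
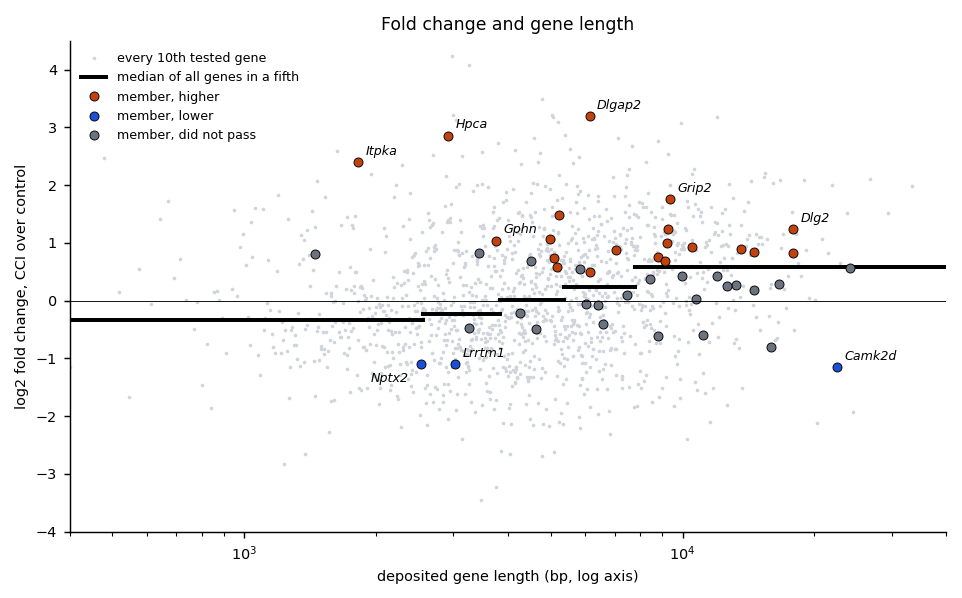
Log2 fold change against deposited gene length (log axis) for members and for every 10th gene tested, with black bars for the median of all genes in each of 5 equal bins of length. The bars climb from -0.34 to 0.58, and Dlgap2, Hpca, Itpka and Camk2d lie well off them.

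The MAGUK genes encode the scaffolds that anchor glutamate receptors and potassium channels at synapses. Of 4, 1 rose (Dlg2) and none fell. Dlg2, which encodes PSD-93, had 106, 96.2 and 135 CPM in CCI replicates 1 to 3, against 53.4, 42.8 and 47.1 CPM in control replicates 4 to 6. The groups lay far apart, and Dlg2 rose by 1.23 ± 0.18 (SE; adjusted p = 0.000866). With the length trend removed Dlg2 was at 0.36 (adjusted p = 0.131), and with both trends removed at 0.82, where it passed. Dlg4, the PSD-95 gene, had 68.6, 65.6 and 63.6 CPM in CCI and 56.5, 57.3 and 50.5 CPM in control. Its groups did not overlap, yet the log2 fold change of 0.27 ± 0.14 did not pass (adjusted p = 0.136), and it was lower with the length trend removed (-0.41). Dlg3, which encodes SAP102, was at 17.9, 14.3 and 26.0 CPM in CCI and 8.57, 21.9 and 9.87 CPM in control. Control replicate 5 lay among the CCI libraries, and the adjusted p was 0.249 (without that library 1.05 and called). Dlg1, the SAP97 gene, was at 0.02 ± 0.15 and did not pass.

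Levels per length show the make-up of the family without regard to library scaling. They do not remove the length trend, and Dlg2 is longer than Dlg1 (17870 and 10736 bp). A share can also fall only because another gene of the family rose. Dlg2 held 30.9%, 29.5% and 32.9% of the summed FPKM of the 4 Dlg genes in CCI, against 20.8%, 14.8% and 20.1% in control. Dlg1 held 26.0%, 29.9% and 26.8% in CCI and 39.2%, 35.5% and 37.8% in control. Neither share overlapped between the groups, and in CCI replicate 2 both genes held nearly the same part. Family shares were chosen for description after values were seen, and with 3 libraries against 3 an exact two-sided permutation test cannot go below 0.10.

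SAPAP proteins join MAGUK scaffolds to Shank. Of their 4 genes 2 rose and none fell. Dlgap2 (ENSMUSG00000047495, chromosome 8, 14145865 to 14897680, plus strand, GRCm39) had the largest fold change of all members. It stood at 15.4, 9.95 and 27.8 CPM in CCI, against 2.86, 0.946 and 1.87 CPM in control. The lowest CCI library was over the highest control library by more than 3-fold, and the rise was 3.20 ± 0.48 (adjusted p = 0.000956). It was 2.71 without CCI replicate 3 and 2.53 with both trends removed. Dlgap1 had 253, 236 and 283 CPM in CCI and 171, 113 and 152 CPM in control. That is a log2 fold change of 0.82 ± 0.20 (adjusted p = 0.00832), with no overlap. It was -0.05 (adjusted p = 0.847) with the length trend removed, and 0.72 with both trends removed, where it passed (adjusted p = 0.0439). Dlgap3 had 7.01, 7.58 and 13.3 CPM in CCI and 6.6, 2.84 and 7.63 CPM in control, overlapping groups that did not pass (adjusted p = 0.169). Dlgap4 (0.37 ± 0.23) did not pass either.

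Shank proteins form the deep layer of the density, and Homer proteins tie Shank to metabotropic glutamate receptors. Of the 6 genes Shank1 and Shank3 rose and none fell. Shank1 had 93.8, 83.5 and 119 CPM in CCI and 60.3, 33.2 and 61.6 CPM in control, a log2 fold change of 0.93 ± 0.25 (adjusted p = 0.0146). Shank3 stood lower, at 14.4, 10.7 and 17.2 CPM in CCI and 5.26, 5.20 and 10.6 CPM in control. Its change was 0.99 ± 0.33 (adjusted p = 0.0332), and the lowest CCI and highest control libraries almost met. Without CCI replicate 3 neither passed (adjusted p = 0.0646 and 0.120), nor did Shank3 without CCI replicate 1 or control replicate 4, and neither passed with the length trend removed. With both trends removed Shank1 passed (0.84, adjusted p = 0.0355) and Shank3 did not (0.22, adjusted p = 0.621).

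Shank2 showed how control replicate 5 differed. Its level was 47.6, 43.9 and 62.2 CPM in CCI and 49.7, 130 and 53.8 CPM in control. The high value in control replicate 5 set the negative log2 fold change of -0.60 ± 0.36 (adjusted p = 0.185), which was -0.04 without that library and -1.16 (adjusted p = 0.0216) with the length trend removed. Homer1, Homer2 and Homer3 had log2 fold changes of 0.42 ± 0.32, 0.25 ± 0.27 and 0.83 ± 0.51, and none passed. Counts per gene do not separate the short, activity-induced Homer1 transcript from the long scaffold forms. Homer3 overlaps Ddx49 on the opposite strand, and no strand setting is stated, so reads of the 2 genes cannot be told apart where their exons meet.

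Among 8 other scaffold and spine genes 4 rose and none fell. Cnksr2 (chromosome X, 156604432 to 156826290, minus strand, GRCm39), which encodes a scaffold linking Ras signalling to the density, had 45.7, 39.0 and 62.0 CPM in CCI and 23.6, 17.5 and 21.3 CPM in control. The groups lay well apart, at 1.23 ± 0.22 (adjusted p = 0.00198), and at 0.77 with the length trend removed. Ppp1r9a encodes neurabin and Ppp1r9b spinophilin, which bring protein phosphatase 1 to spine actin. Ppp1r9a had 101, 101 and 110 CPM in CCI and 62.9, 49.998 and 60.1 CPM in control (0.85 ± 0.15, adjusted p = 0.00223). Ppp1r9b had 88.4, 78.9 and 120 CPM in CCI and 57.2, 45.2 and 69.9 CPM in control (0.74 ± 0.22, adjusted p = 0.0217). Both were higher in each CCI library than in any control library. With the length trend removed Ppp1r9a was at 0.11 (adjusted p = 0.610) and Ppp1r9b at 0.60, where it passed. With both trends removed both passed, Ppp1r9a at 0.59 (adjusted p = 0.0221) and Ppp1r9b at 1.07 (adjusted p = 0.00620). Ppp1r9b did not pass without CCI replicate 3 or control replicate 4. The fourth rise was Baiap2, which encodes IRSp53, at 1.06 ± 0.39 (adjusted p = 0.0483). It did not pass without any 1 of CCI replicates 1 and 3 and control replicates 5 and 6, with DESeq2 size factors (adjusted p = 0.0515) or under either trend correction (adjusted p = 0.0602 and 0.0690). The spine exchange factor gene Kalrn (0.56 ± 0.29), Tanc1 (0.19 ± 0.14), Tanc2 (0.29 ± 0.22) and Begain (-0.49 ± 0.30) did not pass.

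Grip1, Grip2 and Pick1 encode PDZ-domain proteins that bind AMPA receptor tails and steer the receptors between the surface and inner membranes. Grip1 had 22.9, 21.2 and 21.6 CPM in CCI and 12.4, 16.1 and 10.5 CPM in control, a rise of 0.76 ± 0.20 (adjusted p = 0.0135). Grip2 had a low control level, with 16.5, 12.4 and 13.1 CPM in CCI and 6.78, 1.77 and 3.74 CPM in control. Its log2 fold change was 1.75 ± 0.40 (adjusted p = 0.00699), with no overlap. It was 1.29 with the length trend removed, where it passed (adjusted p = 0.0247), and 0.93 (adjusted p = 0.0836) with both trends removed. Pick1 had 14.9, 16.6 and 16.2 CPM in CCI and 21.1, 15.8 and 26.3 CPM in control, and the difference of -0.41 ± 0.22 did not pass (adjusted p = 0.141). Pick1 was called lower with the length trend removed (-0.68, adjusted p = 0.0279), with both trends removed (-0.77, adjusted p = 0.0189) and without control replicate 5 (-0.60, adjusted p = 0.0100). Leaving out CCI replicate 1 (adjusted p = 0.0571) or control replicate 6 (adjusted p = 0.0548) ended the Grip1 call, and Grip1 did not pass under either trend correction (0.33 and 0.20).

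Iqsec proteins activate ARF6 and related small GTPases at synapses, Iqsec1 and Iqsec2 at excitatory and Iqsec3 at inhibitory ones, where gephyrin, the product of Gphn, holds GABA-A and glycine receptors. Of these 4 genes 3 rose. Gphn (ENSMUSG00000047454, chromosome 12, 78273153 to 78731546, plus strand, GRCm39) had 59.2, 53.9 and 60.5 CPM in CCI and 33.5, 20.9 and 30.0 CPM in control. This tight, separated pattern gave 1.04 ± 0.20 (adjusted p = 0.00276), and 1.10 and 1.34 with the length trend and both trends removed. Iqsec3 had 39.4, 42.3 and 54.3 CPM in CCI and 25.2, 21.6 and 26.1 CPM in control (0.90 ± 0.18, adjusted p = 0.00379). Iqsec2 had 15.3, 12.8 and 20.8 CPM in CCI and 8.66, 8.04 and 10.02 CPM in control (0.87 ± 0.24, adjusted p = 0.0147). Neither overlapped between groups, and neither passed under either trend correction; Iqsec2 did not pass without CCI replicate 3 either (adjusted p = 0.0588). Iqsec1 (-0.81 ± 0.42, adjusted p = 0.133) had its highest level in control replicate 5, and its change was -0.09 without that library. It was called lower with the length trend removed (-1.58, adjusted p = 0.0111) and without control replicate 4 (-1.16, adjusted p = 0.0280).

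**Figure D3:**
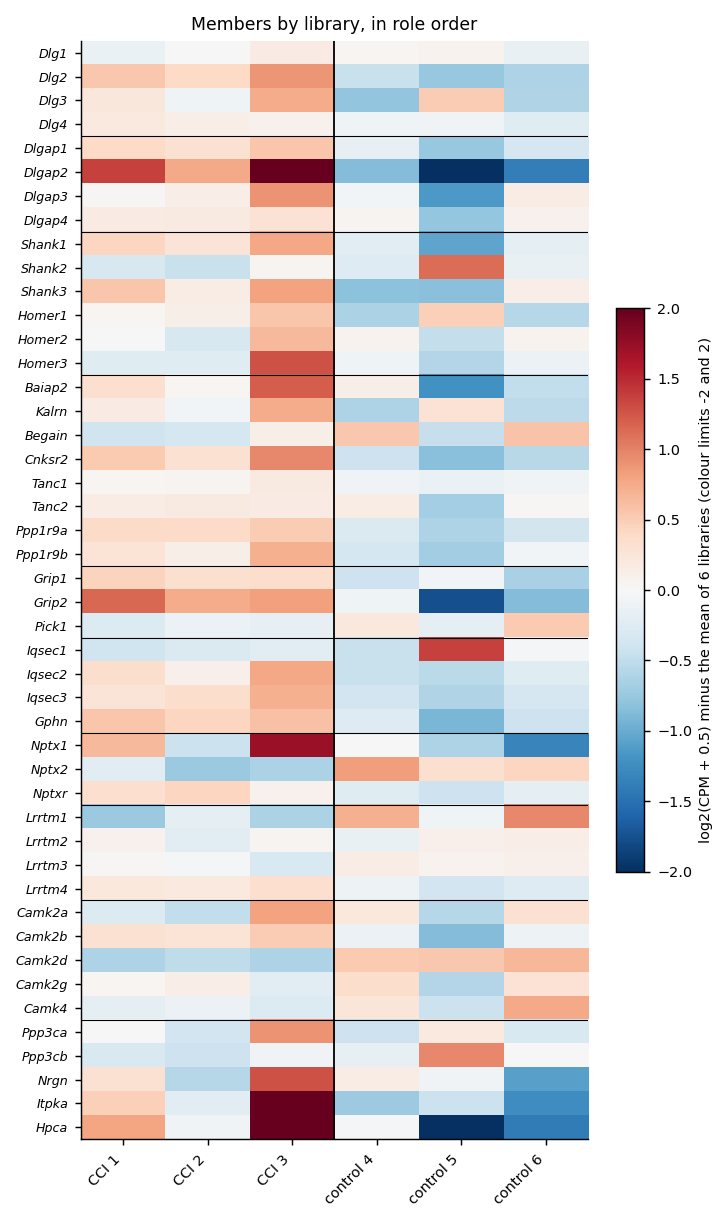
Log2(CPM + 0.5) of each member in each library, minus the mean of the 6 libraries, in role order, with CCI libraries left of the black line. Red marks a level above that mean, in members that passed and in those that did not. Hpca, Itpka and Nptx1 are reddest in CCI replicate 3, and Shank2 and Iqsec1 in control replicate 5.

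Neuronal pentraxins are secreted or membrane-bound proteins that cluster AMPA receptors, and Nptx2 is induced by activity in other brain regions. In this family 2 genes rose and 1 fell. Nptx2 (ENSMUSG00000059991, chromosome 5, 144482712 to 144494288, plus strand, GRCm39) had 10.6, 7.21 and 7.78 CPM in CCI and 22.5, 15.6 and 16.8 CPM in control. All CCI libraries lay below all control libraries, with a log2 fold change of -1.10 ± 0.24 (adjusted p = 0.00539). On log2(FPKM + 1) it was -0.42 and did not pass (adjusted p = 0.163). Nptxr, the membrane-bound pentraxin receptor gene, had 240, 257 and 201 CPM in CCI and 160, 143 and 166 CPM in control. It rose by 0.58 ± 0.17 (adjusted p = 0.0202), with no overlap, but did not pass without any 1 of CCI replicates 1 and 2 and control replicates 4 and 6, or with the length trend removed (adjusted p = 0.0647). With both trends removed it was at 1.21 and passed (adjusted p = 0.00107). Nptx1 had 34.1, 15.9 and 72.3 CPM in CCI and 21.6, 13.9 and 8.30 CPM in control. CCI replicate 2 lay inside the control range, and the call (1.49 ± 0.53, adjusted p = 0.0421) was lost without CCI replicate 3 (0.77, adjusted p = 0.211), CCI replicate 1 or control replicate 6, and under both trend corrections (adjusted p = 0.0570 and 0.0786). As a share of the pentraxin FPKM sum, Nptx2 took 7.32%, 5.11% and 5.49% in CCI and 20.2%, 16.9% and 16.4% in control, with no overlap.

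LRRTM genes encode leucine-rich repeat proteins of the postsynaptic membrane that bind presynaptic neurexins, or, for Lrrtm4, also heparan sulphate proteoglycans. Of 4, Lrrtm4 rose and Lrrtm1 fell. The windows of 250 bases before the start of these genes follow, from the RefSeq table on GRCm38.p6, because the pair moved in opposite directions. Lrrtm1 has 1 window, at chr6:77242227-77242476 (plus strand), and Lrrtm4 has 2, of which the first is shown, at chr6:80018627-80018876 (plus strand). Capitals mark the TATA box letters TATAAA on either strand.
Lrrtm1: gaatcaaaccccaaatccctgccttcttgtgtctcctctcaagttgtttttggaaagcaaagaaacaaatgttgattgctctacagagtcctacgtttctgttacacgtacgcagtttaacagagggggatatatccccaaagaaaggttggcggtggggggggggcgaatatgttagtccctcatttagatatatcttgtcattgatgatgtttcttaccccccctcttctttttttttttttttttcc
Lrrtm4: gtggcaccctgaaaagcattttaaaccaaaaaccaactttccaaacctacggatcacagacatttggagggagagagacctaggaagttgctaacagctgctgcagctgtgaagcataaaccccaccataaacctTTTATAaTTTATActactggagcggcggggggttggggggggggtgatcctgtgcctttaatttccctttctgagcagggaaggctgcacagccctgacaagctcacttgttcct

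The Lrrtm1 window held 0 copies of these letters, the first Lrrtm4 window 2 and the second Lrrtm4 window 0. TATAAA was found in 12.4% of all 32851 windows of the table. Lrrtm1 stood at 47.9, 70.3 and 51.6 CPM in CCI and at 132, 76.4 and 157 CPM in control. The gap between CCI replicate 2 and control replicate 5 was narrow, and the fall was -1.11 ± 0.27 (adjusted p = 0.00972), against -0.45 (adjusted p = 0.290) on log2(FPKM + 1) and -0.46 (adjusted p = 0.177) with both trends removed. With the length trend removed the fall was -0.96 and passed (adjusted p = 0.0135). Lrrtm1 lies inside Ctnna2 and Lrrtm2 inside Ctnna1, each on the opposite strand, so without a stated strand setting reads from unspliced RNA of the hosts cannot be told apart from theirs. Lrrtm4 had 29.3, 28.8 and 31.7 CPM in CCI and 23.5, 19.3 and 21.0 CPM in control. Its change was small but tight (0.49 ± 0.16, adjusted p = 0.0315). It did not pass with any single library left out except control replicate 5 (adjusted p up to 0.0956), with no filter (adjusted p = 0.0537) or under either trend correction. Lrrtm3 had 54.5, 52.3 and 43.5 CPM in CCI and 59.9, 56.6 and 57.5 CPM in control, separated but not called (-0.21 ± 0.15, adjusted p = 0.261). Lrrtm2 was at -0.05 ± 0.16. Lrrtm4 held 11.1%, 9.75% and 12.3% of the LRRTM FPKM sum in CCI and 5.49%, 6.10% and 4.34% in control, and Lrrtm1 the largest share in every library of both groups.

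CaMKII is a kinase of many subunits that stays active after a calcium signal has passed, and its subunits come from 4 genes. Camk2a and Camk2b are the main forms of forebrain neurons, while Camk2d and Camk2g are found in many tissues. Camk2b rose, Camk2d fell, and the other 2 did not pass. The windows of 250 bases before the start of this opposed pair are shown with the GC box letters GGGCGG, on either strand, in capitals. They lie at chr11:6065749-6065998 (minus strand) for Camk2b and chr3:126596701-126596950 (plus strand) for Camk2d, in the RefSeq table on GRCm38.p6.
Camk2b: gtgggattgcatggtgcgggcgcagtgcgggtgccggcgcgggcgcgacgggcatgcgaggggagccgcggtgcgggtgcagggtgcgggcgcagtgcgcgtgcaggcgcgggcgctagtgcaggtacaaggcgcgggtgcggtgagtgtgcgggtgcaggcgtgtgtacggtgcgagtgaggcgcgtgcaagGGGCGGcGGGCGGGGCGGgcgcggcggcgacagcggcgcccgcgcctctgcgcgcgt
Camk2d: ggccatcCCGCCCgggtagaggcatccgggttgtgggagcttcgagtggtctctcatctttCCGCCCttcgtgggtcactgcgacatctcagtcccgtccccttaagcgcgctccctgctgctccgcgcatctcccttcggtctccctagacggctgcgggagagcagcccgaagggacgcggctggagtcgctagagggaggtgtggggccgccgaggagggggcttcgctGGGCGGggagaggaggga

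Both windows held 3 GC boxes, and their GC content was 78.4% for Camk2b and 68.4% for Camk2d, so this motif did not set the pair apart. GC boxes were in 34 of the 61 windows of the 35 members in that table (55.7%), against 32.7% of all its windows. Windows and not genes were counted, so a member can count more than once, as Begain does with 5 windows. The cAMP response element TGACGTCA was in 0 of the 61 (1.55% of all windows) and its shorter core TGACG in 6 (9.84%, against 17.8% of all windows), 1 of them a Homer1 window with 3 copies. TATAAA was in 6 of the 61 (9.84%). Such matches are descriptions of the letters in these windows.

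Camk2d (ENSMUSG00000053819, chromosome 3, 126389951 to 126639975, plus strand, GRCm39) had 171, 184 and 171 CPM in CCI and 377, 380 and 412 CPM in control. Both groups were tight, and every CCI library lay below 0.5 of the lowest control library. The log2 fold change was -1.15 ± 0.16 (adjusted p = 0.000726), with -2.16 and -1.29 under the trend corrections and -0.51 on log2(FPKM + 1), all of which passed. Its deposited length of 22493 bp is the second longest among the members. Camk2b had 209, 204 and 241 CPM in CCI and 155, 92.2 and 157 CPM in control, a rise of 0.69 ± 0.23 (adjusted p = 0.0310). It was not called without any 1 of the CCI replicates (adjusted p up to 0.102) or with the length trend removed (0.24, adjusted p = 0.400). With both trends removed it was at 0.98 and called (adjusted p = 0.0162).

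Camk2a had the highest mean per length over all 6 libraries, at 51.3 ± 26.9 FPKM in CCI and 32.7 ± 13.1 FPKM in control (SD, n = 3 each). On the TMM scale it had 235, 201 and 497 CPM in CCI and 330, 191 and 351 CPM in control. CCI replicate 3 was the highest library and the other 2 CCI libraries lay inside the control range, so the difference of 0.10 ± 0.37 did not pass (adjusted p = 0.838). Without CCI replicate 3 alone the change was -0.42 and not called. Leaving out CCI replicate 3 and control replicate 5 together was a choice made after seeing the data. It takes away the highest CCI and the lowest control library of Camk2a. The lower call there (-0.64, adjusted p = 0.000137) followed from that choice and is no test of a fall. Camk2g (-0.08 ± 0.25) did not pass. Camk4, a nuclear calmodulin-dependent kinase gene, had 23.0, 24.1 and 21.4 CPM in CCI and 31.1, 19.3 and 44.4 CPM in control, overlapping groups that did not pass (adjusted p = 0.180).

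Within the CaMKII family, Camk2b made up 26.5%, 26.8% and 21.9% of the FPKM sum in CCI and 15.7%, 14.8% and 15.4% in control. Camk2d made up 8.77%, 9.81% and 6.27% in CCI and 15.5%, 24.7% and 16.4% in control. Neither share overlapped between the groups. Camk2a took 36.4%, 32.3% and 55.1% in CCI and 40.8%, 37.5% and 42.3% in control, which did overlap.

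**Figure D4:**
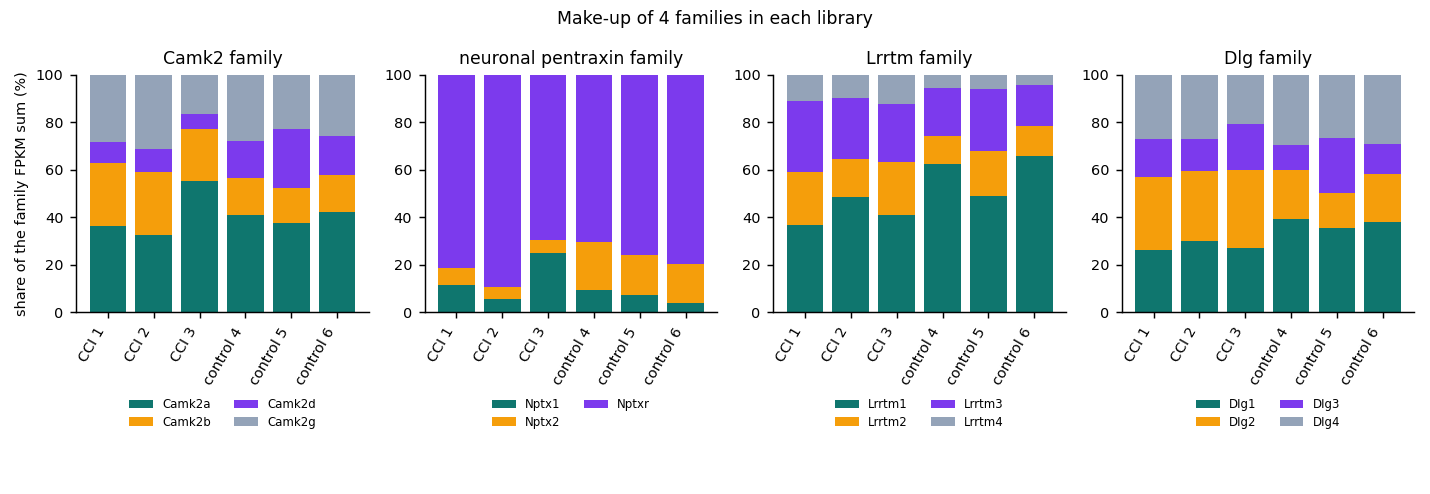
Share of each gene in the summed FPKM of its family (%), for CaMKII, neuronal pentraxin, LRRTM and Dlg genes in each of the 3 CCI and 3 control libraries. The Camk2d, Nptx2, Lrrtm1 and Dlg1 parts are smaller in each CCI library than in any control library, and the Camk2b, Lrrtm4 and Dlg2 parts larger.

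Ppp3ca and Ppp3cb encode the catalytic subunits of calcineurin, the calcium-activated phosphatase of long-term depression. Neither passed in the main test. Ppp3ca had 369, 284 and 687 CPM in CCI and 278, 425 and 300 CPM in control (0.42 ± 0.34, adjusted p = 0.319). Ppp3cb had 79.1, 73.0 and 93.7 CPM in CCI and 87.6, 191 and 97.5 CPM in control (-0.61 ± 0.29, adjusted p = 0.107). CCI replicate 3 was high for Ppp3ca and control replicate 5 for both. Ppp3ca was called higher with both trends removed (0.92, adjusted p = 0.0496) and on log2(FPKM + 1). Ppp3cb was called lower with the length trend removed (-1.05, adjusted p = 0.0165) and without control replicate 4 (-0.85, adjusted p = 0.0351).

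Hpca, Itpka and Nrgn are calcium signalling genes known for high expression in forebrain neurons such as those of hippocampus. Hippocalcin, from Hpca, is a neuronal calcium sensor, Itpka encodes a kinase of inositol trisphosphate, and neurogranin, from Nrgn, holds calmodulin at low calcium. Hpca stood at 68.5, 37.4 and 333 CPM in CCI and at 38.4, 7.33 and 14.7 CPM in control. CCI replicate 3 exceeded every other library by more than 4-fold and CCI replicate 2 lay just under control replicate 4. The call (2.86 ± 0.86, adjusted p = 0.0216) was lost without CCI replicate 3 (1.39, adjusted p = 0.112) and without control replicate 6 (adjusted p = 0.0621). Itpka had 3.11, 1.73 and 10.9 CPM in CCI and 1.07, 1.42 and 0.598 CPM in control. It showed the same high library at a low level (2.40 ± 0.71, adjusted p = 0.0202; 1.26 and adjusted p = 0.0842 without CCI replicate 3, and adjusted p = 0.0648 without control replicate 6). Nrgn (0.81 ± 0.48) did not pass, and it too was highest in CCI replicate 3, at 38.3 CPM.

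**Figure D5:**
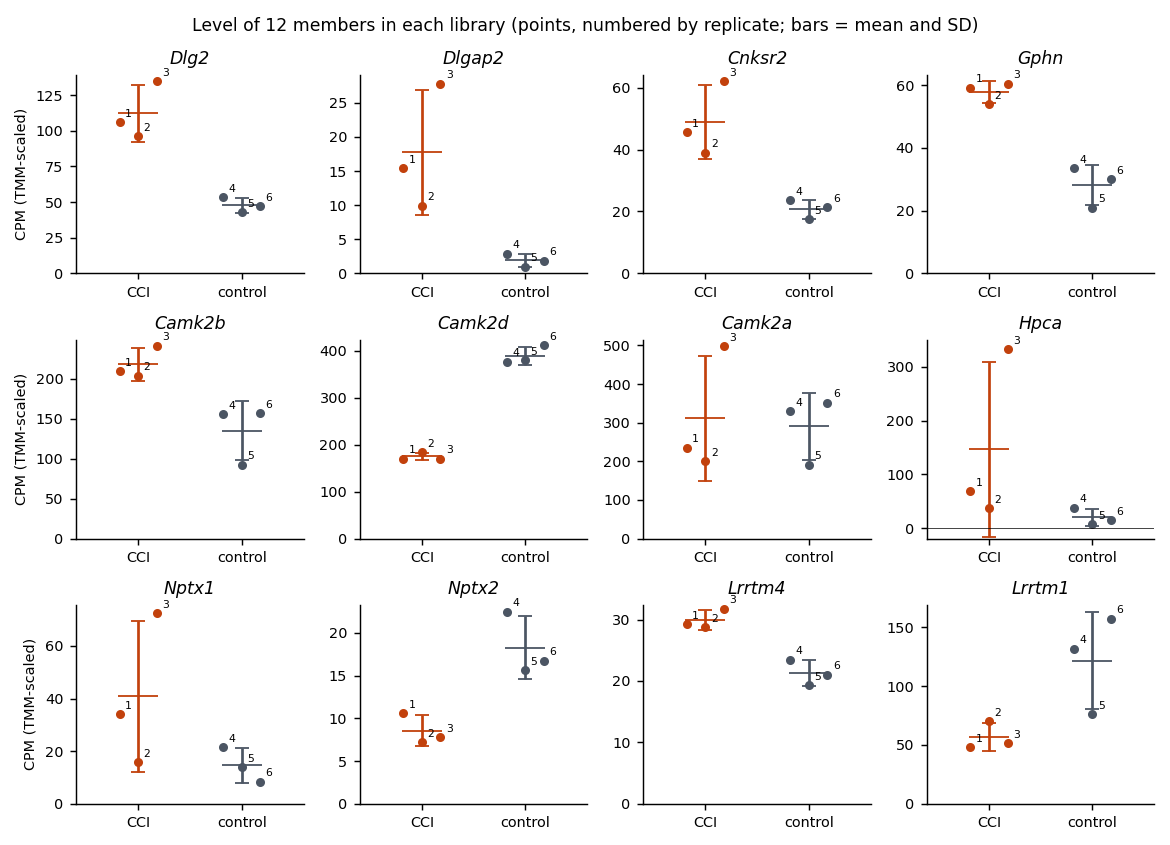
TMM-scaled CPM of 12 members in each library, CCI left of control, with points numbered by replicate and bars for the mean and SD of 3 libraries. Dlg2, Dlgap2, Cnksr2, Gphn, Camk2b and Lrrtm4 lie higher in each CCI library and Camk2d, Nptx2 and Lrrtm1 lower. For Camk2a, Hpca and Nptx1 replicate 3 stands far above the other CCI libraries.

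Markers of neighbouring regions and other cell types moved in the same libraries. The summed CPM of 12 hippocampal and cortical neuron markers was 234, 241 and 276 in CCI and 130, 122 and 117 in control, with 8 of the 11 tested rising and none falling. Neurod6, a gene of this list named after its values were seen, had 4.21, 3.47 and 57.6 CPM in CCI. In control it had 2.5, 2.48 and 0.748 CPM, so CCI replicate 3 stood out there as it did for Hpca. Without the 57.6 CPM of Neurod6, CCI replicate 3 would not have the highest sum of the list. The summed CPM of 10 GABAergic markers was 123, 276 and 438 in CCI and 93.5, 122 and 67.6 in control, where 6 of 9 tested rose. The 10 thalamic neuron markers, which were all present, summed to 2374, 2345 and 1662 CPM in CCI and 5525, 8293 and 6384 CPM in control, with 9 lower and 1 higher (Cacna1g). Of 6 habenula markers 3 fell and none rose (211 to 587 CPM in CCI, 474 to 1618 in control). With 1 library left out, 4 to 8 hippocampal and cortical and 4 to 7 GABAergic markers were higher (all genes 20.0% to 31.5%). In those fits 7 to 9 thalamic and 1 to 4 habenula markers were lower (all genes 18.2% to 30.5%). With both trends removed, 5 hippocampal and cortical and 5 GABAergic markers were higher (all genes 18.9%). There, 5 thalamic markers and 1 habenula marker were lower (all genes 19.9%). None of the marker genes was at 0 in any library. The part of these marker differences in the member results was not tested. In bulk tissue, fewer cells of a type and less RNA per cell cannot be told apart.

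The sums of the other cell types differed as well. Of 12 pan-neuronal markers 1 rose and 3 fell (4374 to 4772 CPM in CCI, 8257 to 10696 in control). Their median log2 fold change was -0.21 (all genes 0.06). With both trends removed it was 0.46 (all genes -0.02), and 4 were higher and 1 lower (all genes 18.9% and 19.9%). On log2(FPKM + 1) the median was 0.41, near the 0.42 of all genes. There 3 were higher and 1 lower (all genes 47.6% and 9.64%). Of 10 oligodendrocyte markers 8 rose and none fell (18836 to 24832 CPM in CCI, 7265 to 14111 in control). Of 10 astrocyte markers 2 rose and 3 fell (3624 to 4346 CPM in CCI, 8187 to 10937 in control), and of 8 microglia markers 1 rose and 1 fell (144 to 196 CPM in CCI, 221 to 287 in control). Against that lower sum, 6 of the 8 microglia markers had positive fold changes, with a median of 0.31. The FPKM scale with a pseudocount of 1 gave 5 higher and 1 lower (all genes 47.6% and 9.64%). Marker genes among those with the smallest unadjusted p in their lists were Prox1 (1.05), Fezf2 (3.12), Gad1 (1.77), Meis2 (2.87), Necab1 (-2.11), Lef1 (-1.29), Gpr151 (-1.79), Pou4f1 (-2.40), Snap25 (-1.92), Elavl4 (-1.06), Gjb6 (-2.36), Aldoc (-2.26), Mobp (2.69) and Cldn11 (1.98), as log2 fold changes.

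Other genes of the same pathways were read out from 4 lists, to be set against the 27.0% higher and 25.3% lower among all genes. Of 25 further excitatory scaffold and regulator genes 6 rose and 4 fell, with a median log2 fold change of 0.40. Magi2, which encodes a scaffold of the MAGUK superfamily, had 98.8, 88.9 and 111 CPM in CCI and 30.8, 34.5 and 26.3 CPM in control (1.71 ± 0.17, adjusted p = 0.00023). Cttnbp2, a spine cortactin-binding protein gene, rose by 0.95 ± 0.17 (adjusted p = 0.00192). Cask, another MAGUK-type gene whose product binds neurexin on the presynaptic side, fell to 148 to 193 CPM in CCI, against 384 to 431 CPM in control (-1.27 ± 0.18, adjusted p = 0.00077). With 1 library left out, 6 to 10 of this list were higher (all genes 20.0% to 31.5%) and 1 to 5 lower (all genes 18.2% to 30.5%). With the stricter filter 10 were higher and 1 lower.

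Calcium and calmodulin signalling genes outside the members went mostly the other way. Of 27, 3 rose and 11 fell, with a median of -0.38. The protein phosphatase 1 catalytic gene Ppp1cb had 91.5, 105 and 99.6 CPM in CCI and 343, 497 and 376 CPM in control (-2.04 ± 0.20, adjusted p = 0.000224). Camk1, a calmodulin-dependent kinase gene, had 87.2, 106 and 94.5 CPM in CCI and 297, 245 and 341 CPM in control (-1.62 ± 0.19, adjusted p = 0.000348). The calmodulin gene Calm2 (-1.59 ± 0.30) and the calcineurin regulatory subunit gene Ppp3r1 (-1.60 ± 0.35) fell, named after their values were seen, while Itpkb rose by 1.42 ± 0.18 (adjusted p = 0.000478). With both trends removed, 4 of the list were higher and 2 lower (all genes 18.9% and 19.9%). The FPKM scale with a pseudocount of 1 gave 5 higher and 6 lower (all genes 47.6% and 9.64%).

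Of 16 other leucine-rich repeat adhesion genes of synapses 9 rose and 2 fell, with a median of 0.61. Lrrc4b, which encodes the netrin-G ligand NGL-3, had 27.4, 21.1 and 29.0 CPM in CCI and 7.85, 9.34 and 6.66 CPM in control (1.70 ± 0.22, adjusted p = 0.000497). Its relative Lrrc4 rose by 1.23 ± 0.23 (adjusted p = 0.00284), and Slitrk2 fell by 0.83 on the log2 scale (SE 0.15, adjusted p = 0.00239). With the length trend removed, 5 of this list were higher and 2 lower (all genes 21.3% and 27.2%). The counts were the same with both trends removed (all genes 18.9% and 19.9%). With 1 library left out, 6 to 10 were higher (all genes 20.0% to 31.5%) and 2 lower (all genes 18.2% to 30.5%). Of 7 other inhibitory postsynapse genes 2 rose and 3 fell, with a median of 0.01. Shisa7, which encodes a GABA-A receptor partner, rose by 1.83 ± 0.39 (adjusted p = 0.00460). Clptm1, which encodes a GABA-A receptor retention factor, had 50.3, 56.8 and 59.8 CPM in CCI and 369, 86.6 and 332 CPM in control (-2.24 ± 0.46, adjusted p = 0.00407), with control replicate 5 far below the other controls. Gabarap (-0.54 ± 0.17, adjusted p = 0.0251) turned to 0.48 with both trends removed.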

How the data were processed

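RNA of 6 libraries of mouse paraventricular thalamus was sequenced after poly-A selection and random priming, per the labels' protocols. Per the submitters' processing notes, the genome was GRCm39 and the tools HISAT2 2.1.0, StringTie 2.2.1, HTSeq 0.9.1, fastp 0.22.0 and DESeq 1.38.3; whether counting used strand is not given. Per the file headers, the deposited columns are whole-number read counts, FPKM and the Length of each gene. The deposited FPKM were checked against count, Length and column total.

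Tests of the counts ran in edgeR 4.0.16 (R 4.3.3; TMM scaling, filterByExpr with a minimum count of 10, quasi-likelihood test, Benjamini-Hochberg over all genes tested). SE is the log2 fold change over the root of F. Alternatives used DESeq2 1.42.0, limma 3.58.1 with pseudocounts of 1 and 0.1, no filter, a minimum count of 50, each library left out, and loess offsets over Length and mean log CPM (span 0.3). FPKM-scale fold changes understate low genes. In simulated data of 14003 genes for CCI against control, 100 genes were set to change 2-fold and 100 to change 4-fold. The test found 28% and 83% of these, and called 6 unchanged genes. In the real data 52.3% of genes were called, far more than were set to change. The simulated shares therefore do not tell how many real changes the test finds. With a length trend added to the simulation (13920 genes), the same test called 2096 unchanged genes, and 11 once the trend was removed. The slope of that trend was set in advance and not fitted to these data, and it was of the smooth kind that the correction removes. These counts therefore do not tell how many calls in the real data follow length.

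Members and lists were chosen with earlier results of these data known. Library values are given for up to 3 members per role with the smallest unadjusted p and the 3 most abundant members. For related lists, up to 3 called genes with the smallest unadjusted p were named, and for marker lists 2 genes each; those of the microglia list are not reported here. Promoter windows came from RefSeq on GRCm38.p6 by symbol, and no coordinates were converted.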

Additional observations from a re-analysis of the deposited data

How the results depend on the processing

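No paired analysis was possible because the CCI and control libraries share no replicate numbers. Of the 20 higher and 3 lower calls among members, 20 and 3 were shared with the DESeq2 Wald test and 19 and 3 each with DESeq2 size factors, no filter and the stricter filter, which tested 44 members. All of these fits scale libraries by methods that take most genes as unchanged, so the shared calls do not check that scaling. With 1 library left out, 10 to 23 members were higher and 3 to 7 lower, 15 to 25 genes of the related lists higher and 12 to 24 lower. Over all genes 2881 to 4560 were higher and 2630 to 4415 lower. On log2(FPKM + 1), 6785 genes were higher and 1374 lower, among them 31 and 1 members and 36 and 7 genes of the related lists, and 11 marker genes were lower. On log2(FPKM + 0.1) the values were 6632 and 1345, 31 and 1, 35 and 7, and 10. Without CCI replicate 3 and control replicate 5 together, a choice made after seeing the data, 8 members and 27 genes of the related lists were lower (31.6% of all genes). With the length trend removed, 7 members were higher and 10 lower (all genes 21.3% and 27.2%). With both trends removed, 13 members were higher, and 7 related and 10 marker genes lower (all genes 18.9% higher and 19.9% lower).

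Positive members numbered 23 with the length trend removed and 43 on log2(FPKM + 1), against 34 in the main test, so signs turned for members that were not called as well as for those given next. With the length trend removed Dlg1 was at -0.52, Dlg4 at -0.41 and Tanc1 at -0.55, each called, and Dlgap1 at -0.055. Lrrtm2 was at 0.49 on log2(FPKM + 1) and 0.54 on log2(FPKM + 0.1), both called. Camk2a ranged over -0.42 to 0.33 with 1 library left out and was at -0.64 without CCI replicate 3 and control replicate 5. Gabarap was at 0.058 on log2(FPKM + 1), 0.059 on log2(FPKM + 0.1) and 0.48 with both trends removed. Apart from the fits whose construction removes a trend or a library, the cause was not tested. Depth limits Dlgap2 and Itpka, at 8 counts in their lowest libraries.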
